A study of Mus musculus with 4 samples.

Results

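The miRNAs described here are the 5p arms of mouse miRNAs numbered miR-6896 to miR-7094, a late-named run whose hairpins resemble mirtrons. They were chosen by name, as probes named with a number in that range and the 5p ending. The rule used no measured value, but earlier results of these data were known when it was set. There were 200 such 5p probes among 1898 miRNA probes, each with 1 spot per array. The 201 3p probes of the same numbers served as a contrast, and miR-7094-3p was the 1 among them without a 5p partner.

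RNA came from MC3T3-E1 cells, a clonal mouse line of osteoblastic cells from calvaria, kept in proliferation medium. All 4 cultures carried an adenovirus vector, which drove GFP in the control culture and the Wnt4, Wnt3a or Wnt5a gene in the others. Total RNA was labelled with the dye Hy5 and hybridised to 1 array per group, so no difference below has a replicate check and no p-value was computed. The only error available is the spot noise, the SD of the log2 signal between repeated spots of 6 control probes, which was 0.07, 0.08, 0.10 and 0.13 on GFP, Wnt4, Wnt3a and Wnt5a. It covers neither hybridisation nor culture. The RNA is that of a whole culture, so fewer cells carrying a miRNA and less of it per cell cannot be told apart.

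A mirtron is a short intron that folds into a miRNA hairpin after splicing and debranching, without a cut by the nuclease Drosha, and Dicer then releases a 5p and a 3p arm. In tailed mirtrons only 1 end of the hairpin coincides with a splice site, and a hairpin that ends at the 3′ splice site ends in AG. In mammals the 3p arm of such hairpins is typically rich in pyrimidines, as the end of an intron is, and the 5p arm that pairs with it is rich in G and A. Wnt3a is best known for signalling through beta-catenin, Wnt5a for signalling without it, and Wnt4 has been linked to both.

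The sequences carried these features. In RefSeq's miRNA table on GRCm38.p6, 176 of the 200 5p members had a mature sequence and 171 had a hairpin. The hairpin ended in AG for 158 of 171 members (92.4%) and for 71 of 825 other miRNA hairpins (8.61%). It started with GU for 26 members (15.2%) and 50 others (6.06%). Both the GU start and the AG end were present for 20 members (11.7%) and 9 others (1.09%). All 200 members lay within the span of a protein-coding gene in RefSeq's gene table of that assembly, against 649 of 1052 other miRNA genes (61.7%). That table gives spans without strand or exons, so whether a hairpin is intronic was not looked up. The hairpins of 2 bright members are shown with the last 2 bases in capitals, to show the AG end.
miR-7005 hairpin, chr2:180179755-180179823, minus strand: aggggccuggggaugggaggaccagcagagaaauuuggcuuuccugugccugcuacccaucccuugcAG
miR-6988 hairpin, chr19:6051334-6051392, plus strand: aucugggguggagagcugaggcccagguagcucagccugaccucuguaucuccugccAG

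The 2 arms differ in base composition. The median 5p member had 10 G bases (43.7% of its length) and was 68.2% A or G, while the median 3p arm of the range had 3 G bases (14.3%) and was 27.8% A or G. The 490 other 5p miRNAs with a sequence had a median of 6 G bases (27.3%) and were 50% A or G. A run of GGGG was present in 67 of the 176 members (38.1%), in 51 of the 490 other 5p miRNAs (10.4%) and in 2 of 177 3p arms of the range (1.13%). The 3p arm ended in AG for 138 of 177 miRNAs (78%). The mature sequences of the brightest members follow, with the seed, bases 2 to 8, in capitals, because the G-rich letters recur across them. The table held no 5p entry for miR-7042-5p, the other of the 10 brightest.
miR-7005-5p: cCUGGGGAugggaggaccagca
miR-6955-5p: aGGGCCUCaggacucaggagguga
miR-6968-5p: aGGGGGCGagggggcccugugg
miR-7059-5p: aCCGGGGAcugcggcuuucagu
miR-6931-5p: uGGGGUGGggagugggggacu
miR-6988-5p: gGGGUGGAgagcugaggccca
miR-7009-5p: uUGGGGUCaggggaccagagcu
miR-6937-5p: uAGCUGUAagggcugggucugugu
miR-7045-5p: aGCGGGUGggggagggggacu

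For contrast, the 3p arms of 3 of these hairpins read as follows, with the seed in capitals.
miR-6931-3p: cCCAACCUcuucauaccccag
miR-6988-3p: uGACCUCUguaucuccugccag
miR-7045-3p: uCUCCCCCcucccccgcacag

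The first question was which members gave signal over blank. A probe counted as detected when its spot median, in the scanner's intensity units, exceeded a limit taken from the array's 896 blank spots, the mean of their middle 95% plus 2 SD. That limit was 104 on the GFP array, 86.9 on Wnt4, 81.7 on Wnt3a and 111 on Wnt5a. By that limit 110 members (55%) were detected on the GFP array, 105 (52.5%) on Wnt4, 151 (75.5%) on Wnt3a and 101 (50.5%) on Wnt5a. The share among all 1898 probes was 32.5% on the GFP array, 28.8% on Wnt4, 56% on Wnt3a and 26.4% on Wnt5a. Among the 579 other 5p probes it was 34.5%, 30.7%, 54.1% and 28.3% in that order. The members were thus detected more often than all probes on each of the 4 arrays.

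The 3p arms of the same hairpins were detected less often. Of 201, 27 (13.4%) passed on the GFP array, 18 (8.96%) on Wnt4, 120 (59.7%) on Wnt3a and 11 (5.47%) on Wnt5a. Counted by hairpin on the GFP array, 93 of 200 pairs had only the 5p arm detected, 10 only the 3p arm, 17 both and 80 neither. On Wnt4 the counts were 95, 8, 10 and 87 in that order, and on Wnt5a 94, 4, 7 and 95. On the Wnt3a array 55 pairs had only the 5p arm, 23 only the 3p arm, 96 both and 26 neither, so there the arms were most often detected together. The 5p spot was the brighter of the pair in 152, 156, 154 and 153 of 200 pairs on GFP, Wnt4, Wnt3a and Wnt5a. The probes of the arms differ in sequence, so a brighter spot is not a measure of more RNA.

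**Figure D1:**
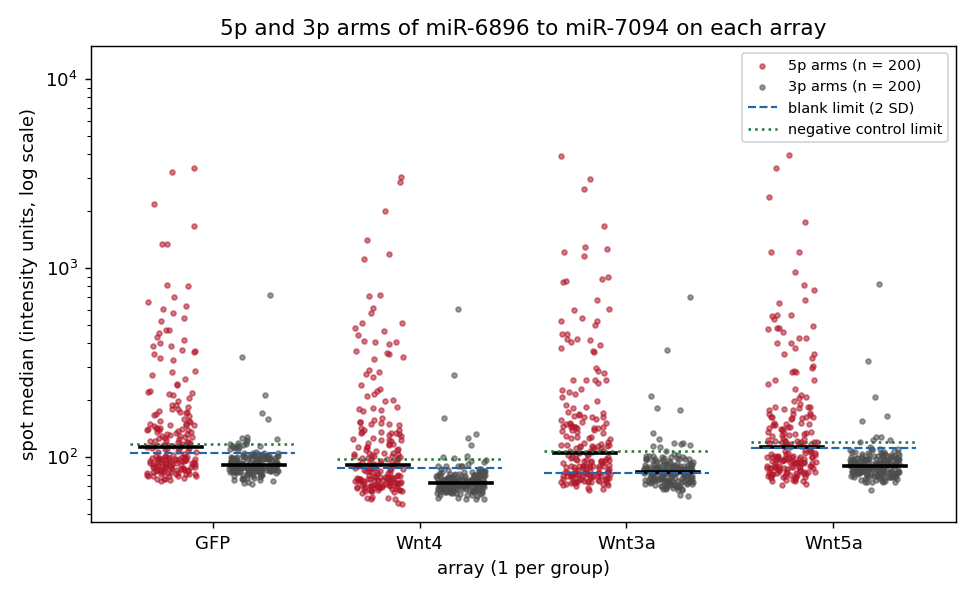
Spot medians in intensity units on a log scale for the 200 5p arms (red) and their 200 3p partners (grey) on each of the 4 arrays, with points spread sideways for clarity. The short black line is the median, the dashed line the blank limit and the dotted line the negative control limit. The 5p arms reach 3370, 3028, 3928 and 3967 units on GFP, Wnt4, Wnt3a and Wnt5a, while the brightest 3p arm lies at 722, 608, 704 and 826.

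Most members were dim. The 200 members had a lowest, median and highest spot of 74.3, 113 and 3370 units on the GFP array. They had 56.5, 90.4 and 3028 units on the Wnt4 array, and 66.8, 105 and 3928 units on the Wnt3a array. On the Wnt5a array the values were 70.8, 113 and 3967 units. The median member lay near the limit on GFP, Wnt4 and Wnt5a. On Wnt3a it lay farther above, at 105 units against a limit of 81.7. On the GFP array 25 members lay within 1.2-fold above the limit and 55 within 1.2-fold below it. At least 2 times the limit was reached by 40 members on the GFP array, 40 on Wnt4, 51 on Wnt3a and 37 on Wnt5a. At least 10 times the limit was reached by 6, 6, 12 and 6 members.

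The same members recurred across arrays. All 4 arrays detected 98 members (49%), no array detected 49 (24.5%), and 37 (18.5%) were detected on the Wnt3a array only. The remaining members fell on other combinations, the commonest being GFP with Wnt3a, for 6 members. Among all 1898 probes 25.4% were detected on all 4 arrays and 43.6% on none. On all 4 arrays 10 of the 201 3p arms (4.98%) and 157 of the 579 other 5p probes (27.1%) were detected.

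The larger count on the Wnt3a array was shared by most probe sets and depended on the limit. Detected on the Wnt3a array only were 18.5% of the 5p members, 44.3% of the 3p arms and 22.1% of all probes. The blank mean there was 72.8 units against a median miRNA spot of 84.0, a gap of 11.2 units, whereas the gap was 3.29 on the GFP array, 0.24 on Wnt4 and -6.25 on Wnt5a. The 32 negative control spots averaged 84.0 units on the Wnt3a array, above its blank mean, and with the limit set from them it was 107 units. The members detected were then 93, 91, 97 and 91 on GFP, Wnt4, Wnt3a and Wnt5a, and 2 were detected on the Wnt3a array only. With that limit the 3p arms numbered 11, 9, 14 and 10, so the contrast between the arms remained on each array. The negative control limit used all 32 spots, without the trimming of the blank limit. Under the other limits the excess remained. The share of members was 57.5% on Wnt3a against 43% on GFP with the blank limit at 5 SD. It was 71% against 56% with a limit from spots without probe.

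**Figure D2:**
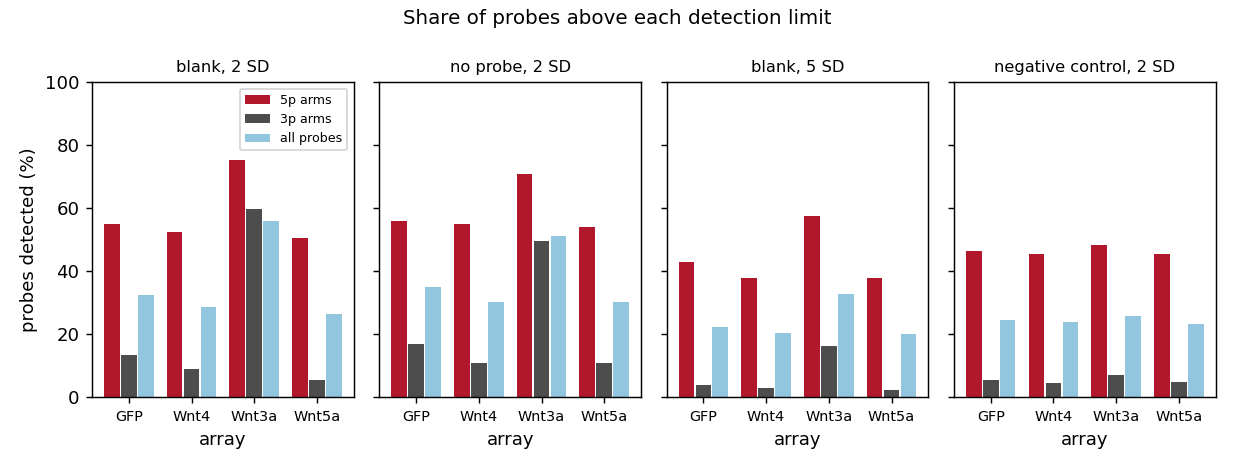
Percent of 5p arms (red, n = 200), 3p arms (grey, n = 201) and all probes (light blue, n = 1898) above 4 detection limits on each array. The 5p bar is the tallest on every array under each limit, and the excess on the Wnt3a array falls from 75.5% against 55% on the GFP array with the blank limit to 48.5% against 46.5% with the negative control limit.

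The 10 brightest members were detected on all 4 arrays. They lie within genes of unrelated kinds, whose names come from RefSeq's gene table, and no function of the miRNAs themselves is stated here. miR-7005-5p, within Lama5, which encodes a laminin chain of basement membranes, gave 3227 units on the GFP array, 2864 on Wnt4, 3928 on Wnt3a and 3967 on Wnt5a. miR-6955-5p, within Gga1, whose protein sorts cargo at the Golgi, gave 3370, 3028, 2631 and 3378 units on GFP, Wnt4, Wnt3a and Wnt5a. It was the brightest member on the GFP and Wnt4 arrays, but not on the other 2.

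miR-6968-5p, within Phf1, which encodes a Polycomb-associated protein, gave 2191, 2015, 2945 and 2362 units on the same arrays. miR-7059-5p, within the lysosomal membrane protein gene Cln3, gave 1666, 1404, 1669 and 1742 units. miR-6931-5p, within Dcakd, gave 1334, 1192, 1286 and 1221 units. These 3 were bright throughout and kept their order on each array. miR-6988-5p, within Syvn1, which encodes a ubiquitin ligase of the endoplasmic reticulum, gave 1342, 1110, 1218 and 1220 units. miR-7042-5p, within Tatdn2, gave 805, 710, 1264 and 951 units. miR-7009-5p, within the annexin gene Anxa5, gave 813, 720, 891 and 810 units. Of the 3, miR-7042-5p stood highest on the Wnt3a array relative to the other arrays.

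The 3p partners of these members were dim. Those of miR-7005, miR-6968, miR-7042, miR-7009 and miR-6937 passed the blank limit on the Wnt3a array. That of miR-6937, at 97.7 units there, also passed on Wnt4, at 91.3. The 3p spot of miR-7005 lay between 78.6 and 93.6 units and that of miR-6955 between 73.2 and 96.3. An exception was miR-7045, within Chd4, which encodes a chromatin remodeller. Its 5p arm gave 661, 580, 839 and 652 units and its 3p arm 339, 270, 370 and 322 on GFP, Wnt4, Wnt3a and Wnt5a. Both arms were detected on all 4 arrays for 6 hairpins, miR-7045, miR-7052, miR-7046, miR-7036b, miR-7028 and miR-7082. miR-7052-5p, within Josd2, gave 369, 282, 422 and 352 units against 211, 161, 209 and 208 for its 3p arm. Both of these hairpins had a brighter 5p spot on every array. miR-7046-5p, within Rabac1, gave 204, 150, 189 and 183 units against 122, 95.8, 124 and 123 for its 3p arm. miR-7036b-5p, within the adducin gene Add1, gave 135, 105, 146 and 142 units against 117, 99.8, 114 and 127. The arms of miR-7036b were the closest of these 4 hairpins in signal, and both were near the limit. miR-7028 and miR-7082 had the brighter spot on the 3p side, with 119 units against 158 for miR-7028-5p and its 3p arm on the GFP array. miR-7082 was named after its values were seen.

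In 1 hairpin the 3p spot was at least 2-fold brighter on every array, and it too was picked out after its values were seen. miR-7000-3p gave 722, 608, 704 and 826 units on GFP, Wnt4, Wnt3a and Wnt5a, the brightest 3p spot of the range on each. Its partner miR-7000-5p gave 85.0, 75.9, 75.7 and 89.5 units, below the limit on all 4. The gene lies within Mapk8ip1, which encodes a scaffold of JNK signalling. In all, 4 hairpins had the 3p arm but not the 5p arm on all 4 arrays, the others being miR-7087, miR-7022 and miR-6897.

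Mirtrons named earlier did not share 1 pattern. miR-1224-5p gave 332, 307, 390 and 326 units on GFP, Wnt4, Wnt3a and Wnt5a and was detected on all 4. Its 3p arm gave 110, 85.3, 92.6 and 112 units and passed on 3. For miR-702 the 3p spot was the brighter on each array, at 119, 77.1, 106 and 106 units against 94.2, 70.8, 87.8 and 87.1 for the 5p arm, with 2 detections against 1. Each arm of miR-877 was detected on the Wnt3a array alone, where the blank limit was lowest. Both spots were nevertheless lower there than on GFP, at 87.3 against 96.4 units for the 5p arm and 94.2 against 101 for the 3p arm.

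Detection rose with the number of G bases in the mature miRNA. Of members with 0 to 6 G bases 0 of 9 were detected on all 4 arrays, and of those with 7 or 8, 7 of 34 (20.6%). With 9 or 10 G bases 34 of 69 members (49.3%) were detected on all 4, and with 11 or more 41 of 64 (64.1%). The other 5p miRNAs gave 44 of 274 (16.1%), 31 of 120 (25.8%), 29 of 61 (47.5%) and 24 of 35 (68.6%) in the same bins. The rise was seen in both sets, and whether they differ at a given G count was not tested.

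**Figure D3:**
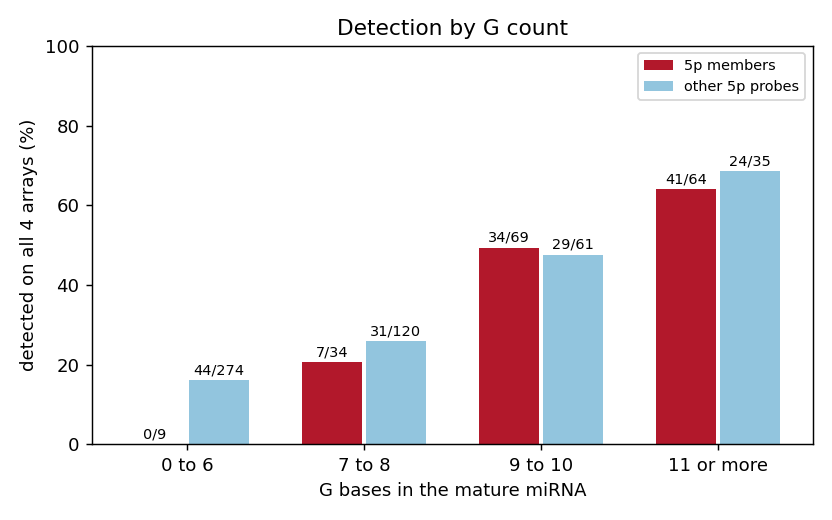
Percent of miRNAs detected on all 4 arrays by the number of G bases in the mature sequence, for the 176 5p members with a sequence (red) and the 490 other 5p miRNAs (light blue), with the counts above each bar. Both sets rise from left to right, from 0 of 9 to 41 of 64 for the members and from 44 of 274 to 24 of 35 for the others.

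Across the 176 members, which share 4 arrays and differ in probe, the number of G bases and the mean log2 level had a Spearman correlation of 0.49, and the percent of G and C and the level one of 0.61. Across the 490 other 5p miRNAs the values were 0.34 and 0.36. Length had a correlation of -0.01 with the level of the members. These are descriptions across probes. A probe's own base composition follows that of the miRNA it pairs with, and its part was not tested. A run of GGGG was present in 44 of 82 members detected on all 4 arrays (53.7%) and in 8 of 43 detected on no array (18.6%). The hairpin's AG end went with a smaller contrast, since 75 of 158 members with it (47.5%) and 5 of 13 without it (38.5%) were detected on all 4 arrays.

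**Figure D4:**
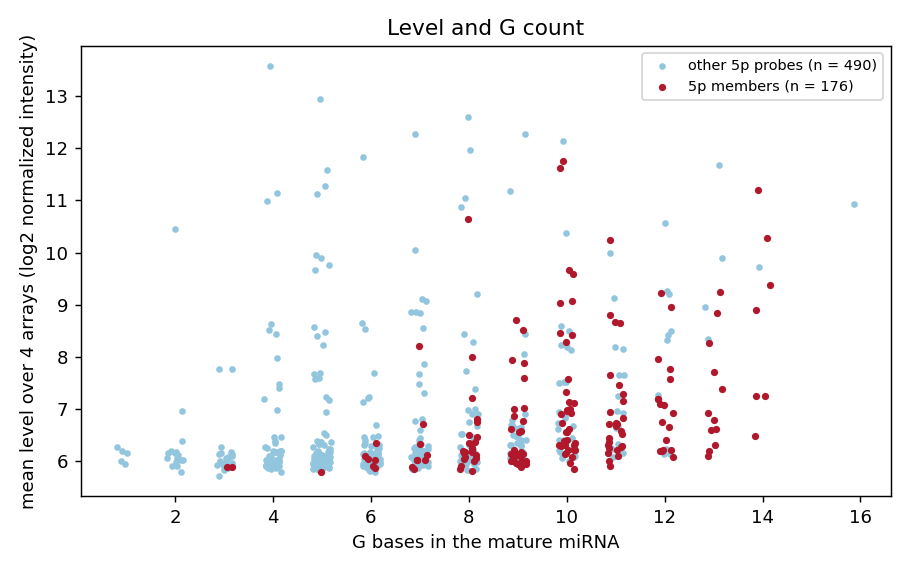
Mean log2 normalized intensity over the 4 arrays against the number of G bases, with 1 point per miRNA, for 176 5p members (red) and 490 other 5p miRNAs (light blue), spread sideways for clarity. The members cluster at 8 to 14 G bases, and their levels span from about the blank level to 11.8.

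Single members departed from this trend. miR-7059-5p had 8 G bases and was the fourth brightest member. miR-6908-5p, within the pyridoxal kinase gene Pdxk, had 7 and gave 349, 229, 379 and 304 units on GFP, Wnt4, Wnt3a and Wnt5a. miR-7090-5p, also with 7, lies within Ctnnb1, which encodes beta-catenin, and gave 135, 103, 113 and 123 units. Its log2 difference from GFP was -0.09 on Wnt4, -0.21 on Wnt3a and -0.14 on Wnt5a. In all, 7 members with 8 G bases or fewer were detected on all 4 arrays. Against these, 5 members with 11 or more were detected on none, miR-6978-5p, miR-7080-5p, miR-7017-5p, miR-7060-5p and miR-7066-5p. miR-7090-5p and these 5 were named after their values were seen.

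Members that shared a seed, which sets most of a miRNA's target choice, were few. The 176 sequences held 155 distinct seeds, of which 18 occurred in 2 or more members and none in more than 3. Shown with the seed in capitals are the 2 groups with 3 members detected on all 4 arrays, and miR-6975-5p, which forms a group of 2 with miR-7005-5p. That last group tied with 3 others of 2 members each, all detected on all 4 arrays, miR-6965-5p with miR-7047-5p, miR-6927-5p with miR-7070-5p and miR-6941-5p with miR-7024-5p, and was taken by the alphabetical order of the seeds.
miR-7030-5p: uGGGGAGGuggcugugcuaguc
miR-7076-5p: aGGGGAGGugguauggucuca
miR-7075-5p: cGGGGAGGaggacaugguuuu
miR-6922-5p: uGUGGGAGgggacuguagagagg
miR-6993-5p: aGUGGGAGaaacgggugucuguc
miR-7008-5p: uGUGGGAGaugccaggagccguac
miR-6975-5p: gCUGGGGAgaaagggguuuggca

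All 7 were detected on all 4 arrays. The seed of the first 3 was not found in another probe's miRNA, that of the next 3 also occurs in miR-705, and the last shares its seed with miR-7005-5p. miR-7030-5p gave 220, 183, 229 and 229 units on GFP, Wnt4, Wnt3a and Wnt5a and miR-7076-5p 214, 179, 221 and 208. miR-7075-5p was dimmer, at 156, 123, 139 and 159 units. In the second group the spots lay between 90.6 and 141 units, close to the limit. miR-6975-5p gave 150, 116, 133 and 144 units, far below miR-7005-5p of the same seed.

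Each Wnt array was compared with the GFP array to see which members differed. Log2 differences were taken on the normalized scale (normexp with an offset of 50, then quantiles) for members detected on both arrays, and differences of at least 1.5-fold were counted. The offset makes folds of dim probes smaller than they are. The spot-noise SE of a log2 difference was 0.11 for Wnt4, 0.12 for Wnt3a and 0.14 for Wnt5a against GFP. The 3 comparisons share the GFP array.

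On the Wnt3a array 4 of 110 members detected on both were at least 1.5-fold higher than on GFP (3.64%), and 0 were lower. Among all 611 probes the shares were 1.47% higher and 2.29% lower. The median log2 difference of the members was 0.04, with a range from -0.40 to 1.22, against a median of 0.00 for all probes. Of the members 63 lay above 0 and 45 below. The other members detected on both arrays lay within 1.5-fold.

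Of the 4 higher members, 3 are shown with the seed in capitals, since they differ in seed.
miR-7036a-5p, chr5:137296661-137296683, minus strand: aGCGGGGUucgguggggaagaga
miR-6913-5p, chr10:81386352-81386373, plus strand: uGGGAGACcagucagguguugg
miR-6937-5p, chr12:28679325-28679348, plus strand: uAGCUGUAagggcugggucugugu

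miR-7036a-5p lies within Srrt, which encodes a cap-associated factor of RNA processing. It gave 385 units on the GFP array, 337 on Wnt4, 856 on Wnt3a and 428 on Wnt5a. The Wnt3a spot was the highest, at 10.5 times the limit against 3.70 on GFP. The log2 difference from GFP was 1.22 (spot-noise SE 0.12), or 2.33-fold, and it was 0.05 on Wnt4 and 0.17 on Wnt5a. miR-7036a-3p gave 99.6, 89.3, 103 and 93.2 units and was near the limit throughout.

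miR-6913-5p lies within Dohh, which encodes an enzyme that modifies a translation factor. It gave 142, 105, 256 and 150 units on GFP, Wnt4, Wnt3a and Wnt5a, highest on Wnt3a. Its log2 difference between Wnt3a and GFP was 0.93 (SE 0.12), or 1.90-fold. On Wnt4 it was -0.17 and on Wnt5a 0.08. Its 3p arm was below the limit on all 4 arrays.

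miR-7047-5p gave 544, 511, 875 and 565 units on GFP, Wnt4, Wnt3a and Wnt5a. The difference on Wnt3a was 0.77 (SE 0.12), or 1.71-fold. miR-6937-5p lies within Adi1, a gene of methionine salvage, and gave 700, 614, 1161 and 760 units. The difference on Wnt3a was 0.73 (SE 0.12), or 1.66-fold. In both, the Wnt3a array stood above 3 arrays that lay close together. Just under the counted fold on Wnt3a were miR-7042-5p at 0.57, miR-6968-5p at 0.53 and miR-7005-5p at 0.53.

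The place of these spots on the array was looked up. miR-6913-5p, miR-7047-5p and miR-6937-5p all lie in block 24. The first 2 adjoin, at column 2 in rows 5 and 6, and miR-6937-5p lies at column 6 in row 6. miR-7036a-5p lies in block 1, at that same column 6 and row 6. The other 17 probes of block 24 detected on both arrays had a median log2 difference of 0.01 between Wnt3a and GFP, with a range from -0.50 to 1.18. That 1.18 was the largest rise of any detected probe outside the miR-6896 to miR-7094 range. In all, 9 of 611 probes were at least 1.5-fold higher, and the 3 named members of block 24 and that probe are among them. The 28 blank spots of that block averaged 73.9 units on the Wnt3a array and 91.6 on GFP, near the mean over the whole array. These values describe the block as a whole, not single places within it. The part of position in these differences was not tested. The scanner files also give a background value for each spot, which followed the spot's own signal, with a Pearson correlation of log2 values from 0.95 to 0.99 across the 1898 probes on the 4 arrays. For miR-7036a-5p it was 220 units on the GFP array and 763 on Wnt3a. With that column subtracted before normexp, an alternative added after the values were seen, the difference between Wnt3a and GFP turned to -0.28 for miR-7036a-5p and -0.30 for miR-6913-5p, and fell to 0.20 for miR-7047-5p and 0.03 for miR-6937-5p.

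Lower on the Wnt3a array, by less than 1.5-fold, were miR-7006-5p at -0.40, miR-6923-5p at -0.40 and miR-7033-5p at -0.35. miR-6923-5p, within the myosin gene Myh3, gave 189, 156, 144 and 176 units on GFP, Wnt4, Wnt3a and Wnt5a. miR-7033-5p, within the nuclear pore gene Pom121, gave 628, 482, 526 and 558 units. For both, the GFP spot was the highest of the 4. miR-7006-5p, within Zfp512b, gave 115, 78.7, 83.1 and 84.2 units and was below the limit on Wnt4 and Wnt5a.

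**Figure D5:**
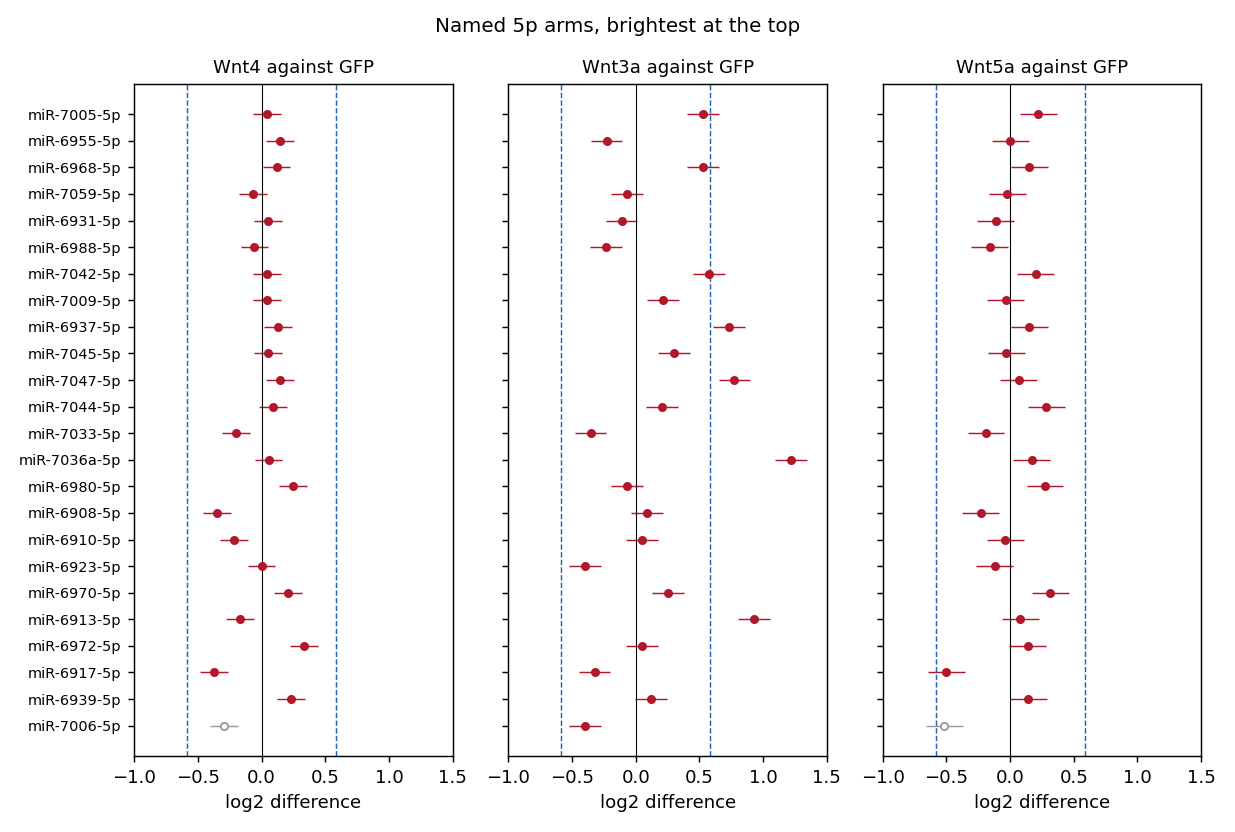
Log2 difference from the GFP array for members named by their difference or brightness, 1 panel per Wnt array, with the brightest member at the top. Bars are 1 spot-noise SE, dashed lines mark 1.5-fold, and open grey points mark a member below the limit on 1 of the arrays. The 4 points beyond the dashed line lie in the Wnt3a panel, from 0.73 to 1.22, and no filled point of the Wnt4 or Wnt5a panel crosses it.

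The members on the Wnt3a array only had no measurable fold. The brightest were miR-6896-5p, within the dystonin gene Dst, at 104 units on that array, miR-7012-5p, within Dennd4b, at 96.9, and miR-6952-5p, within the cell polarity gene Scrib, at 96.6. Their normalized Wnt3a levels were 1.10-fold, 1.01-fold and 1.01-fold the lowest detected level of the GFP array. The members were chosen as undetected on GFP, so this compares them with the limit and gives no fold between the arrays. The miR-7012-5p spot was higher on GFP (99.8 units) and Wnt5a (108 units) than on Wnt3a, but below those arrays' higher limits. The miR-6952-5p spot was higher on Wnt5a, at 104 units. On the normalized scale both were also higher on Wnt5a than on Wnt3a, while miR-6896-5p was highest on Wnt3a. All 3 members lay below the negative control limit of the Wnt3a array.

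On the Wnt4 array 0 of 102 members were 1.5-fold higher and 0 lower, against 0.193% higher and 0.58% lower among all 517 probes detected on both. The median difference was 0.01, with a range from -0.37 to 0.33, and 52 members lay above 0 and 48 below. The members farthest up were miR-6972-5p at 0.33, miR-6980-5p at 0.25 and miR-6939-5p, within the kinase gene Akt1, at 0.23. miR-6972-5p, within the complement gene Cfb, gave 149, 149, 149 and 162 units on GFP, Wnt4, Wnt3a and Wnt5a. The spots of miR-6972-5p were nearly equal on GFP and Wnt4, while the median miRNA spot was 94.1 units on GFP and 74.7 on Wnt4. miR-6939-5p lay close to the limit, at 110, 100, 109 and 117 units. Farthest down were miR-6917-5p at -0.37, miR-6908-5p at -0.35 and miR-6910-5p at -0.22. miR-6910-5p, in the span of both Plppr3 and Ptbp1, gave 282, 209, 295 and 282 units, lowest on Wnt4. The Wnt4 and GFP arrays were closer for the members, with an SD of the log2 differences of 0.13, than the Wnt3a and GFP arrays, at 0.25, which was not tested. The same held for all probes, at 0.14 and 0.30.

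On the Wnt5a array 0 of 100 members were 1.5-fold higher and 0 lower, against 0.203% higher and 0% lower among all 493 probes. The median difference was 0.02, with a range from -0.50 to 0.32. The SD of the members' differences was 0.13, no larger than the spot-noise SE of 0.14 for a single difference. miR-6917-5p, within the receptor gene Erbb3, was again farthest down, at -0.50 (SE 0.14), with 180, 118, 142 and 132 units on GFP, Wnt4, Wnt3a and Wnt5a. Its GFP spot was the highest of the 4, and the 3 differences share it. miR-6908-5p at -0.23 and miR-7033-5p at -0.19 followed. Farthest up were miR-6970-5p at 0.32, miR-7044-5p at 0.29 and miR-6980-5p at 0.27. miR-7044-5p, within Rasgef1a, gave 580, 511, 675 and 681 units, with the Wnt3a and Wnt5a spots above the other 2. miR-6970-5p, within Skiv2l, an RNA helicase gene, gave 148, 138, 172 and 180 units. miR-6980-5p, within Arap3, gave 401, 405, 389 and 482 units.

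The last comparisons were among the Wnt arrays. Of 105 members detected on both, 4 were at least 1.5-fold higher on Wnt3a than on Wnt4 and 0 lower, against 1.65% and 3.49% of all 544 probes. They were miR-7036a-5p at 1.16, miR-6913-5p at 1.10, miR-7047-5p at 0.63 and miR-6937-5p at 0.60, each with a spot-noise SE of 0.13. Between Wnt3a and Wnt5a 3 of 101 were higher and 0 lower, against 1.8% and 2.4% of all 501 probes. These were miR-7036a-5p at 1.05, miR-6913-5p at 0.85 and miR-7047-5p at 0.71 (SE 0.16), with miR-6937-5p just under, at 0.58. Between Wnt5a and Wnt4 0 of 98 were higher and 0 lower, against 0.823% and 0% of all 486 probes. The comparisons of Wnt3a with GFP, Wnt4 and Wnt5a share the Wnt3a array.

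The 27 3p arms detected on both the Wnt3a and GFP arrays had a median difference of -0.01 and none at 1.5-fold. Among the 196 other 5p probes 3 were higher and 12 lower on Wnt3a. G content and the difference between Wnt3a and GFP had a Spearman correlation of 0.05 across 93 members and of 0.46 across 156 other 5p miRNAs, whose difference was not tested.

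The cell line was checked against marker miRNAs. The 8 mesenchymal markers were detected on all 4 arrays, between 899 and 14365 units, and the liver marker miR-122-5p was below the limit on all 4. The 5 epithelial markers lay between 62.7 and 105 units, with 1, 0, 3 and 0 detected on GFP, Wnt4, Wnt3a and Wnt5a. Of the muscle, neural, blood and endothelial markers, miR-206-3p, miR-9-5p and miR-451a were detected on all 4 arrays, at no more than 134 units.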

How the data were processed

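The deposited scanner files hold a median intensity and a background intensity for each of 3200 spots per array, read at 635 nm and 3 gains per the file headers. The deposited table of processed values is also an intensity. Compared with the scanner values, it equals each array's spot median minus about the blank mean, times 1 factor per array (0.405, 0.399, 0.929 and 0.285 for GFP, Wnt4, Wnt3a and Wnt5a), to within 0.05 units, with a median of 25 per array. The feature extraction software and a genome build are not given in the sources used.

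The arrays have 1 colour. Spot medians were corrected by normexp with an offset of 50 over all spots, because the background column followed the signal, and the 1898 miRNA probes left after 2 flagged ones were quantile-normalized with limma 3.58.1 in R 4.3.3. Python 3.11.15, numpy 2.4.6, pandas 2.3.3 and matplotlib 3.10.9 did the rest. Detection and the counted fold of 1.5 are as stated above. The counting was tested on simulated arrays with changes larger than the differences named here, and only in probes well above blank. That test does not cover changes near 1.5-fold or members near the limit. With 1 array per group no test was possible and the number of arrays limits the precision.

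The members and lists were chosen with earlier results of these data known. Named were the 10 brightest members detected on all arrays, those at least 1.5-fold from GFP or between Wnt arrays (or the 3 farthest each way), the 3 brightest on the Wnt3a array only, up to 5 with both arms on all arrays, and up to 3 seed groups. Sequences, hairpin positions and gene names are RefSeq's, assembly GRCm38.p6. Alternatives covered the limit, the background step, the scaling, the deposited table and the filter on dim probes.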

Additional observations from a re-analysis of the deposited data

How the results depend on the processing

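The number of members detected on the GFP, Wnt4 and Wnt5a arrays stayed within 1.5 times under the limits at 5 SD, from spots without probe and from negative control probes. On the Wnt3a array it fell from 151 to 97 with the negative control limit. Without normalization between arrays the median log2 difference of the members between Wnt4 and GFP was -0.17, as was that of all probes, and scaling on the bright control probes moved the median to 0.18 for Wnt3a (all probes 0.12) and 0.17 for Wnt5a (all probes 0.13). With an offset of 16, 1 member was lower on Wnt3a and 1 on Wnt5a. With the blank mean subtracted, the Wnt4 median was -0.24 (all probes -0.26) with 13 members lower, the Wnt3a median 0.31 (all probes 0.27) with 26 higher and 1 lower, and 5 were lower on Wnt5a. In the authors' deposited table the median was -0.26 for Wnt4 with 15 members lower, 1.51 for Wnt3a with 110 of 111 higher, and -0.56 for Wnt5a with 46 lower. The medians of all probes in that table were -0.28, 1.47 and -0.59. After that table was rescaled by the miRNAs it lists for every array, the counts were 2 higher and 4 lower for Wnt4, 16 higher and 3 lower for Wnt3a, and 1 higher and 5 lower for Wnt5a. With the background column subtracted, which was added after the data were seen, they were 13 higher and 3 lower for Wnt4, 4 higher and 4 lower for Wnt3a, with none of the 4 members named as higher there among them, and 9 higher and 4 lower for Wnt5a. These counts at 1.5-fold are given without the share of all probes under the same setting. They therefore do not separate the members from a shift of the whole array. The share of members above 0 on the Wnt3a array was 57.3% against 48.1% of all probes. It was 73.6% against 60.1% without normalization, 70.9% against 57.6% with scaling to the median, 87.3% against 72.7% with the bright controls, 87.3% against 74% with the blank mean, 99.1% against 98.4% in the deposited table and 69.4% against 58.4% after its rescaling. It was 55.5% against 45.5% with cyclic loess and 51.8% against 49.8% with the background column. The 4 members higher on Wnt3a stayed at least 1.5-fold higher under the 11 other alternatives, all but the background column. Not all of the 11 could have failed. Removing the dim filter or setting the limit at 5 SD cannot change these differences, so those settings test nothing here. With the authors' deposited values, 110 of 111 members were at least 1.5-fold higher, so passing there does not set the 4 apart. With the background column subtracted miR-7036a-5p and miR-6913-5p turned to -0.28 and -0.30. The recomputed differences of named members numbered 1217, including 103 without the dim filter and 84 at 5 SD that could not change. Of the 1217, 192 had the opposite sign, 45 of them in the deposited table and 51 with the background column. The cause was not tested. No paired analysis was possible because each group has 1 array, and for the same reason no replicate could be left out. Signal over background limits the results. The median member was near the blank limit on GFP, Wnt4 and Wnt5a. On Wnt3a it lay at 105 units, above the blank limit of 81.7 and below the negative control limit of 107. The fold of such dim members is compressed by the offset, and their detection depends on the limit.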
